A study of Mus musculus with 15 samples.

Results

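Described here are 6 CXC chemokine genes, Cxcl1, Cxcl2, Cxcl3, Cxcl5, Ppbp and Pf4, and the gene of the neutrophil chemokine receptor Cxcr2. They were chosen by gene symbol. All 7 were found among the 20418 gene symbols of the deposited tables, 6 under these names and Cxcr2 under its older symbol Il8rb, to which it was matched by its RefSeq identifier. Each was represented by 1 transcript. The 6 ligands lie on chromosome 5 and the receptor on chromosome 1.

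The study sequenced RNA of mouse eyes, lids included, comparing mice with and without a disrupted Egr1, the gene of a zinc finger transcription factor induced by growth signals, some of which had lids that were not merged. Lids of mice normally fuse before birth and part later. There were 15 libraries. Wild-type eyes gave 2 newborn libraries and 1 adult library, and eyes labelled Egr1-/- gave 2 newborn and 2 adult libraries. At 3 days after birth each eye of 4 mice was sequenced alone: 4 open eyes of labelled knockouts (E24 right, E29 left and both eyes of E32), 2 closed eyes of labelled knockouts (E24 left and E29 right), and both closed eyes of the Egr1+/- littermate E28. All mice were of the BALB/c strain by label. The knockout allele came from a C57BL/6 line crossed back to BALB/c for 5 generations in one series and 4 in another, and the labels do not say which series a library belongs to. No animals are named for newborns and adults, so their p-values reflect only how far libraries differ, which may be partly technical. Their lid state is not labelled either, so in newborns and adults it cannot be told apart from genotype.

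Reads in transcripts ranged from 20334849 to 43907093 per library. Egr1, the targeted gene, went against its labels: it stood at 33.0 to 60.7 CPM (reads scaled to the size of the library) in the 3 wild types, at 99.3 and 110.3 CPM in the eyes of E28, and at 157 to 367 CPM in the 10 libraries labelled knockout. Reads over a whole transcript do not show whether an allele is disrupted. Every direction below is drawn from labels, and "labelled knockout" names the label only. Newborn labelled-knockout replicate 1 stood apart in its lens genes, whose summed level was 462.4 CPM against 52010 CPM in replicate 2. In newborns, the 12 retina markers summed to 1858 and 2283 CPM in wild types and to 372.1 and 673.6 CPM in labelled knockouts. Fewer cells of a type and less RNA per cell cannot be told apart in such whole-eye libraries.

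CXC chemokines are small secreted proteins that bind cell-surface sugars and draw leukocytes up a gradient. Those with a glutamate-leucine-arginine motif near the amino end, here Cxcl1, Cxcl2, Cxcl3, Cxcl5 and processed Ppbp, activate Cxcr2, a G protein-coupled receptor that neutrophils carry and that brings them from the blood into injured or infected tissue, the cornea among them. Cxcl1, Cxcl2 and Cxcl3 are made by epithelium, fibroblasts and macrophages after interleukin 1, tumour necrosis factor or Toll-like receptor signals, in large part through NF-kB. Cxcl5 is made mainly by epithelium and is induced by interleukin 17. Ppbp and Pf4 are best known as proteins stored in the granules of platelets. Pf4 lacks the motif and does not act through Cxcr2.

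On chromosome 5, the gene annotation of a later build places Cxcl5, Ppbp, Pf4, Cxcl3, Cxcl15, Cxcl1 and Cxcl2 side by side in this order, between Rassf6 and Mthfd2l. Cxcl15 is a further CXC chemokine that is not among the 7 genes. RefSeq promoter windows of build GRCm38.p6 were at hand for 6 of the 7 genes, all but Cxcl5. The 120 bases before the start of 5 ligands are shown, all on the plus strand, because these neighbours differ in their letters here. Whether the letters bear on levels in the eye was not tested. Capitals mark GGAATTTCC, a letter string of the NF-kB type.
Cxcl1, chr5:90891125-90891244: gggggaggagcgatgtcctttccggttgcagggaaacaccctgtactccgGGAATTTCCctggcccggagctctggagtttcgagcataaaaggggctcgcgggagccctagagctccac
Cxcl2, chr5:90903779-90903898: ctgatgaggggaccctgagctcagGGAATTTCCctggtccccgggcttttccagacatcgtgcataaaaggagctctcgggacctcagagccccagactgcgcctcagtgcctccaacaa
Cxcl3, chr5:90785981-90786100: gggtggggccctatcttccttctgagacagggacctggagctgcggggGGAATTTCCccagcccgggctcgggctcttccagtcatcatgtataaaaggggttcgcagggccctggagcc
Ppbp, chr5:90768398-90768517: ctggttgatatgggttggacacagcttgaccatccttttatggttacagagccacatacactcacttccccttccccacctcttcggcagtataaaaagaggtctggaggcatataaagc
Pf4, chr5:90772315-90772434: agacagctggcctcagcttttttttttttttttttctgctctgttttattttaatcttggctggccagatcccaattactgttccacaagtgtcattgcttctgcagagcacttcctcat

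Motifs were searched on both strands in the 250 bases before each start. They were chosen with these sequences already seen, and a match is a description of letters only. GGAATTTCC was found once in each of Cxcl1, Cxcl2 and Cxcl3, starting at -70, -96 and -72 from the start of the transcript, and was not found in Ppbp, Pf4 or Cxcr2. It occurs in 94 of 32851 windows of this length (0.286%). TATAAA, the TATA type, was found at -30 in Cxcl3 and at -30 and -8 in Ppbp, and in 12.4% of all windows. ATAAAA, which overlaps it, was found in each of the 5 ligand windows and in 5576 of all 32851. GCGNGGGCG, the type bound by Egr1, was found in none of the 6 windows and in 4.70% of all. TGANTCA, the AP-1 type, was found in Ppbp alone among them, at -204, and in 6.75% of all. Of the transcripts, Cxcl2 and Cxcl3 share 146 stretches of 36 bases (6.85% of those of Cxcl2), so some reads of one may have been counted for the other.

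Newborn labelled-knockout eyes had more RNA of the neutrophil-attracting ligands and of their receptor than newborn wild-type eyes (n = 2 each). The lid state of these eyes is not labelled. Of the 7 genes, all of which were read deeply enough to be tested, 6 rose and none fell, against 14.6% of all genes tested that rose. Pf4 was the exception by the test. In 7 of 7 genes both labelled-knockout libraries lay above both wild types, against 33.8% of all genes. The median log2 fold change of the 7 was 5.07, and that of all genes -0.07. Tests are edgeR's quasi-likelihood test with Benjamini-Hochberg adjustment over all genes, called at an adjusted p under 0.05, and fold changes are given on the log2 scale ± SE.

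Cxcl5, Cxcl2, Cxcl3 and Cxcl1 had very little RNA in wild types. Cxcl5 was at 0.190 and 0.0855 CPM in the wild types and at 6.33 and 13.3 CPM in the labelled knockouts, a rise of 6.12 ± 0.73 (adjusted p = 0.0034). Cxcl2 had no read in either wild type and was at 2.37 and 13.0 CPM in the labelled knockouts. Counting 3 reads over the wild types as the limit that 0 allows, Cxcl2 was at least 108-fold higher (adjusted p = 0.0081). Of its 409 reads, 338 were in replicate 2. Cxcl3 was at 0.333 and 0 CPM in the wild types and at 4.63 and 6.57 CPM in the labelled knockouts, a rise of 5.07 ± 1.14 (adjusted p = 0.0192). Cxcl1 was at 0.380 and 0.128 CPM in the wild types and at 1.47 and 4.49 CPM in the labelled knockouts, a rise of 3.53 ± 0.94 (adjusted p = 0.035). For these 4 ligands replicate 2 of the labelled knockouts was the higher.

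The platelet pair parted. Ppbp, whose processed product is the neutrophil attractant NAP-2, was at 1.33 and 0.599 CPM in the wild types and at 120.01 and 46.8 CPM in the labelled knockouts. It rose by 6.43 ± 0.99 (adjusted p = 0.00569), to 4820 reads from 42, and here replicate 1 was the higher. Pf4, which lies next to it on the chromosome, was at 3.47 and 2.69 CPM in the wild types and at 9.96 and 10.4 CPM in the labelled knockouts. Its groups did not overlap, but its value of 1.72 ± 0.53 did not pass (adjusted p = 0.0564). Under 16 alternative settings the adjusted p of Pf4 ran from 0.00135 to 0.243, and it passed in 6 of them. Cxcr2, the receptor, was at 1.43 and 0.299 CPM in the wild types and at 6.60 and 8.68 CPM in the labelled knockouts, a rise of 3.15 ± 0.63 (adjusted p = 0.0128).

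These calls need both newborn wild types. Without wild-type replicate 1 none of the 7 genes passed, nor did any other gene, and adjusted p-values of the 7 ran from 0.0517 to 0.205. Without wild-type replicate 2 none passed while 728 genes did, with adjusted p-values of the 7 from 0.0553 to 0.243. Without labelled-knockout replicate 1, Cxcl3 did not pass (adjusted p = 0.0555), and without replicate 2 neither Cxcl3 (adjusted p = 0.0785) nor Cxcl1 (adjusted p = 0.2). When single newborn libraries were left out, the log2 fold change of Cxcl1 ran from 2.53 (without labelled-knockout replicate 2) to 4.50 (without wild-type replicate 1), that of Cxcr2 from 2.43 (without wild-type replicate 2) to 4.67 (without wild-type replicate 1), and that of Ppbp from 5.60 (without labelled-knockout replicate 1) to 7.13 (without wild-type replicate 1). That of Cxcl5 ran from 5.50 (without labelled-knockout replicate 2) to 6.78 (without wild-type replicate 1). Cxcl2 passed without either labelled knockout, at least 192-fold higher without replicate 1 (adjusted p = 0.00619) and at least 35-fold higher without replicate 2 (adjusted p = 0.0186). The log2 fold change of Cxcl3 was 4.06 without wild-type replicate 2, and without replicate 1 the wild types hold no read of it.

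**Figure D1:**
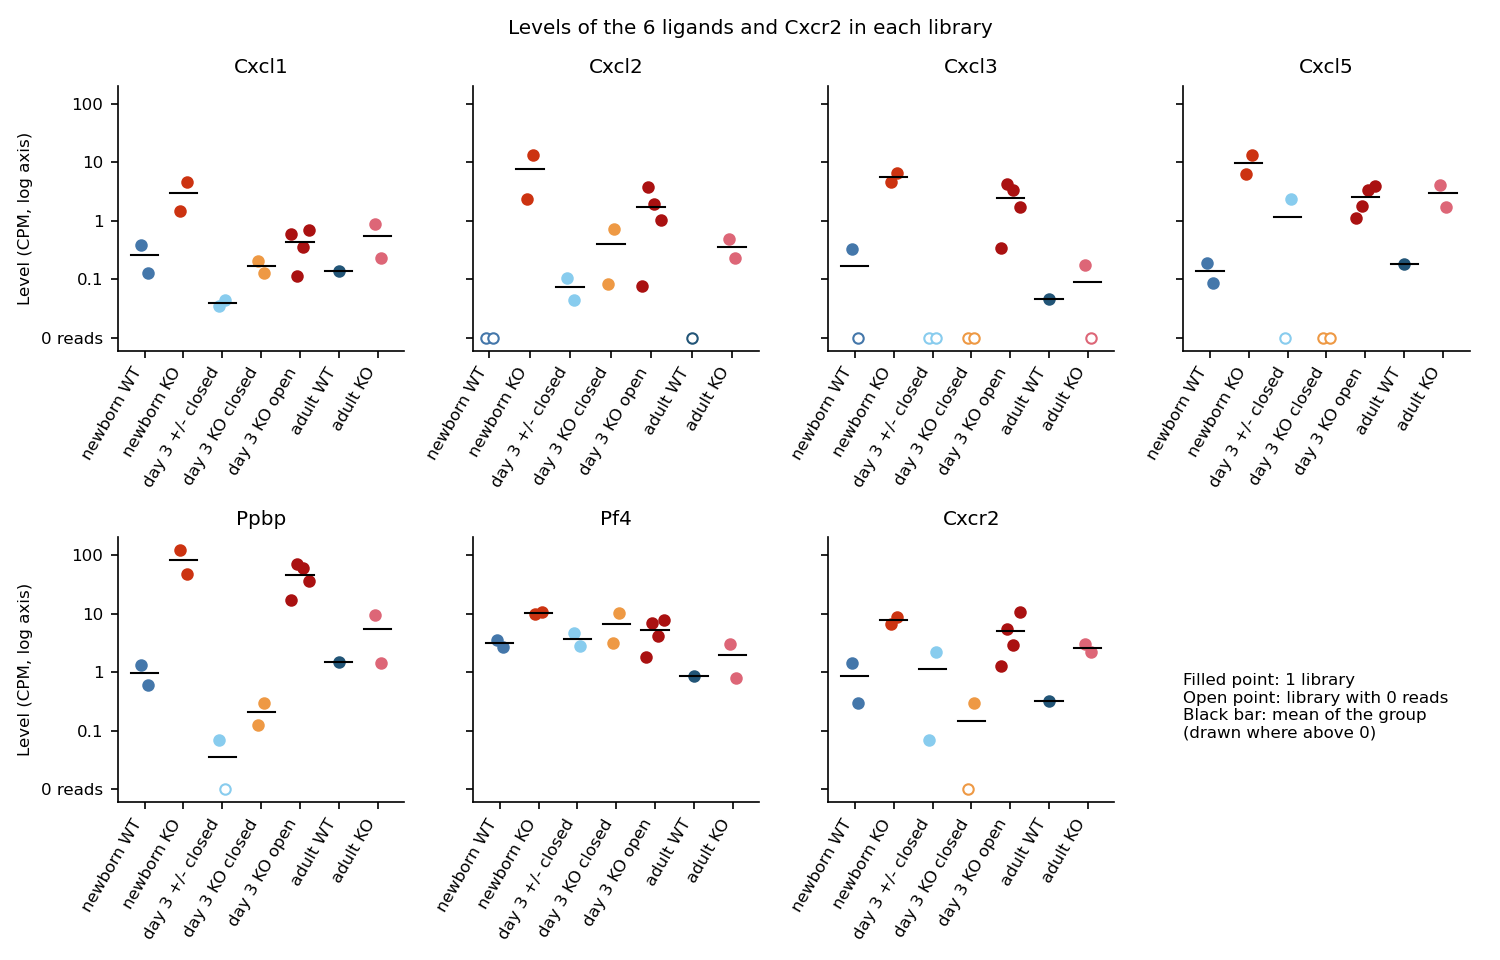
Level of each ligand and of Cxcr2 in CPM on a log axis, 1 panel per gene and 1 point per library, with KO for labelled knockout and +/- for the heterozygous mouse. Open points at the bottom are libraries with 0 reads and bars are group means: Ppbp is at 16.9 to 120.01 CPM in newborn labelled knockouts and open eyes and at 0 to 9.42 CPM elsewhere, whereas Pf4 is within 0.786 and 10.4 CPM throughout.

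Inducing cytokines, sensors and NF-kB genes were read as well, and their part in the values of the 7 genes was not tested. Of 29 tested inducing cytokines, sensors and NF-kB genes, 24 rose and none fell in newborns (median log2 fold change 1.60). Those with the smallest p were Nfkbiz, an inducible co-activator of NF-kB, which rose by 2.70 ± 0.18 (adjusted p = 0.0022), Zfp36, which marks cytokine RNA for decay, by 2.18 ± 0.22, Nfkb2, an NF-kB subunit, by 2.04 ± 0.21, and Tlr2, a sensor of bacterial lipoproteins, by 2.04 ± 0.24. Of the other CXC chemokines and receptors, 5 of 16 rose and 1 fell (median 0.67). Cxcl17 rose by 2.80 ± 0.47, Cxcl16 by 1.09 ± 0.20 and Cxcl12, the stromal ligand of Cxcr4, by 2.03 ± 0.45. Cxcr7, a scavenger of Cxcl12, rose by 1.19 ± 0.25. Of the CC chemokines and receptors, which mainly address monocytes and lymphocytes, 7 of 26 rose and none fell (median 0.89), among them Ccl11 by 2.75 ± 0.49, Ccl9 by 2.03 ± 0.39 and the receptors Ccr1 by 2.75 ± 0.59 and Ccr2 by 2.34 ± 0.53.

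Markers of several cell types were read in the same comparison, against the 14.6% of all genes that rose and the 9.38% that fell. All 14 markers of basal and stressed keratinocytes rose (median 3.32), and their summed level went from 1177 and 1827 CPM in wild types to between 12700 and 12970 CPM. Of 18 neutrophil markers 8 rose and none fell (median 2.58), from a summed 10.94 and 22.3 CPM to between 84.33 and 98.38 CPM. S100a9, a calcium-binding protein abundant in neutrophils and also made by stressed keratinocytes, rose by 4.64 ± 0.37, and Csf3r, the receptor for the neutrophil growth factor, by 2.85 ± 0.33. Of the defining neutrophil markers, Retnlg rose by 3.59 ± 0.76. Ngp (2.72 ± 0.85, adjusted p = 0.0664) and Camp (1.08 ± 1.11, adjusted p = 0.511) did not pass. Values of Prtn3 (-1.60 ± 0.52), Ela2 (-0.90 ± 1.36) and Cd177 (-0.01 ± 0.80) lay below 0 and did not pass. Of 15 macrophage markers 6 rose and none fell (median 1.31), from a summed 177.4 and 181.4 CPM to between 454.5 and 578.5 CPM. Endothelial markers rose in 8 of 10 and fibroblast markers in 5 of 8, while all 12 retina markers fell. Erythroid markers passed in 1 of 10, below the share of all genes, with a median of 1.17. Their summed level nevertheless went from 918.5 and 948.4 CPM in wild types to between 2324 and 3052 CPM in labelled knockouts.

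Platelet and megakaryocyte markers were counted because platelets are the known store of Ppbp and Pf4. Of 14 tested, 3 rose and 1 fell, and the median was 0.37. Their summed level was 93.7 and 96.79 CPM in wild types and between 86.9 and 115.4 CPM in labelled knockouts, ranges that overlap. Itgb3, an integrin also made outside platelets, rose by 2.03 ± 0.32, Selp, also an endothelial adhesion protein, by 2.83 ± 0.51 and Itga2b, the platelet fibrinogen receptor subunit, by 1.08 ± 0.28, whereas Gp1bb, which makes up most of the sum in wild types, fell by 0.77 ± 0.20. The defining platelet markers Gp9 and Treml1 had at most 9 reads in a newborn wild type and at most 16 in a newborn labelled knockout. How far any of these cell types takes part in the changes of the 7 genes was not tested.

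**Figure D2:**
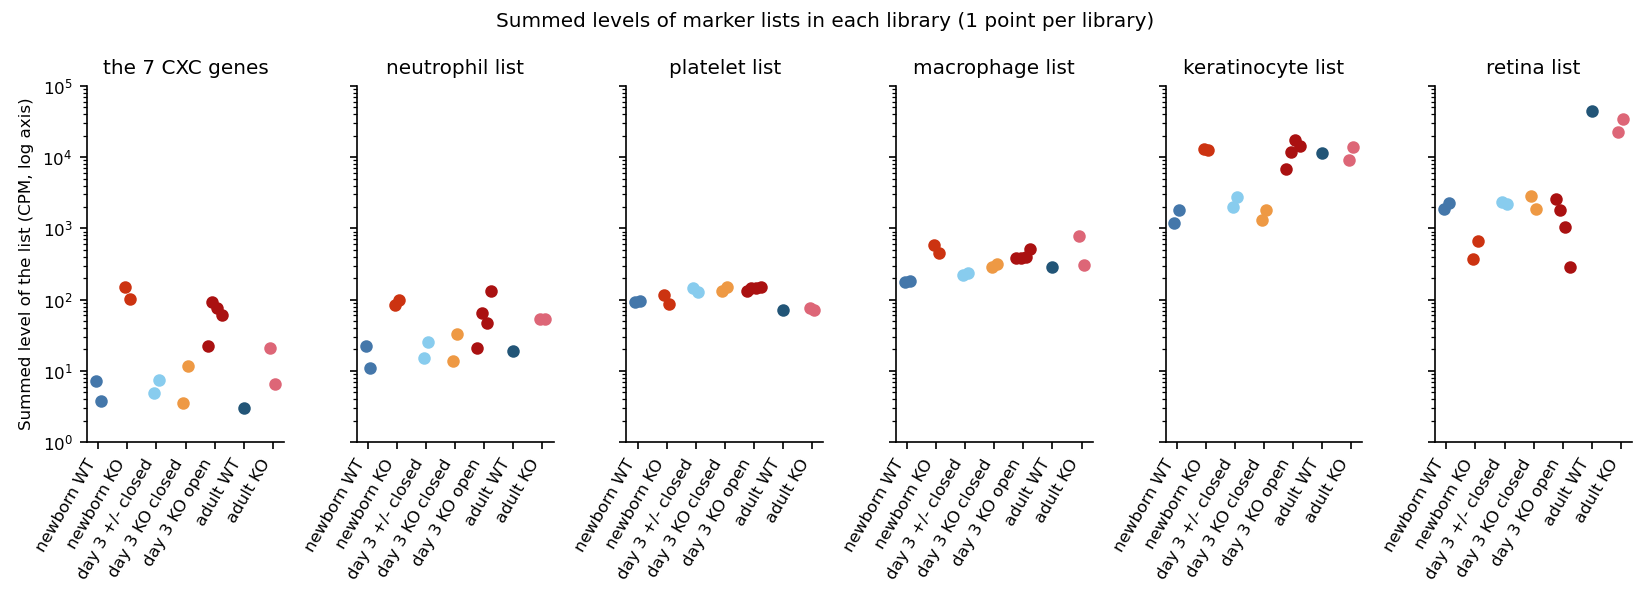
Summed level of the 7 CXC genes and of 5 marker lists in CPM on a log axis, 1 point per library. The CXC genes, the neutrophil list and the keratinocyte list are higher in newborn labelled knockouts than in newborn wild types, while the platelet list stays between 71.2 and 148.7 CPM in every library. A large part of that platelet sum is Gp1bb alone.

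In adults the question was whether labelled knockouts (n = 2) still differed from the wild type (n = 1). None of the 7 genes passed (0% of all genes did), and 2 of the 7 had an unadjusted p under 0.05, as had 506 genes in all. With DESeq2 107 genes passed, 1 of the 7 among them. With 1 wild type, its spread was taken from the other groups of the fit. Cxcl5 was at 0.184 CPM in the wild type and at 4.14 and 1.71 CPM in the labelled knockouts, a value of 3.98 ± 0.94 (adjusted p = 0.799). It passed with DESeq2 (adjusted p = 0.0287) and without labelled-knockout replicate 2 (4.48, adjusted p = 0.0374), within a range of 0.0287 to 1 over 13 alternatives. Cxcr2 was at 0.321 CPM in the wild type and at 3.08 and 2.17 CPM in the labelled knockouts, a value of 3.04 ± 0.92 (adjusted p = 1). In 4 of the 7 genes, these and Cxcl1 and Cxcl2, both labelled knockouts lay above the wild type, against 26.3% of all genes.

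The other adult values rest on few reads. Cxcl2 had no read in the adult wild type and 16 in the labelled knockouts together, at least 2.62-fold higher. Cxcl1 had 3 reads in the wild type and 25 in the labelled knockouts, a ratio of 4.10 (95% exact interval 1.25 to 21.2, covering counting error only). Cxcl3 had 1 read in the wild type and 4 in the labelled knockouts, a ratio of 1.97 (0.195 to 96.8). The platelet pair was carried by 1 library: Ppbp was at 1.47 CPM in the wild type and at 9.42 and 1.43 CPM in the labelled knockouts, and Pf4 at 0.872 CPM in the wild type and at 3.08 and 0.786 CPM in the labelled knockouts. Without labelled-knockout replicate 1 their log2 values were 0.00 and -0.11, against 1.91 ± 1.15 and 1.17 ± 0.75 with it. This library stood apart from replicate 2 in other lists as well: macrophage markers summed to 772.9 against 304.4 CPM, endothelial markers to 565.7 against 274.9 CPM, CC chemokines and receptors to 131.9 against 45.33 CPM and lens markers to 8709 against 50940 CPM. Platelet markers summed to 75.2 and 72.58 CPM, of which Gp1bb held most (a mean of 48.3 CPM). The part of these differences in the adult values was not tested. None of the marker or pathway lists had a gene that passed in adults. The summed keratinocyte level was 11280 CPM in the wild type and between 9090 and 13920 CPM in the labelled knockouts, and the summed neutrophil level 18.99 CPM against 52.76 and 52.96 CPM. The median log2 value of the neutrophil list was 1.14. S100a9 was at 0.963 CPM in the wild type and at a mean of 20.6 CPM in the labelled knockouts. Of the defining neutrophil markers, Camp was at 0 ± 1.86 and Retnlg at 0.21 ± 1.03 on the log2 scale. Ngp was at 0.0459 CPM in the wild type and at 0 CPM in the labelled knockouts.

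The genotype difference itself did not differ between ages for any of the 7 genes by the test (0 of 7, with 1 of 7 at an unadjusted p under 0.05 and 0 of 7 with DESeq2, against 2.80% of all genes that passed in either direction). DESeq2 called 2131 genes for this difference. The largest well-measured value was that of Ppbp, whose adult effect was lower than the newborn one by 4.53 on the log2 scale (-4.53 ± 1.46, adjusted p = 0.136, range 0.00978 to 0.311 over 13 alternatives). It passed when either adult labelled-knockout library was left out. For Cxcr2 the difference was -0.11 ± 1.25 (adjusted p = 0.983), with an error far larger than the value. With 1 genotype effect over both ages (n = 4 against 3), none of the 7 passed, against 0.0114% of all genes, although all 7 had an unadjusted p under 0.05, as had 20.9% of all genes, and all 7 passed with DESeq2, as did 1486 genes in all. Cxcl5 (5.37 ± 0.69, adjusted p = 0.124) and Cxcr2 (3.11 ± 0.53, adjusted p = 0.174) had the smallest p. In these and in Cxcl2, 3 of the 7 genes, every labelled knockout lay above every wild type, against 3.56% of all genes. Without the adult wild type 6 of the 7 passed, a fit that repeats the newborn comparison.

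In labelled knockouts most of the ligands were lower in adults than in newborns (n = 2 each): 5 of the 7 genes fell and none rose, against 20.4% of all genes that fell, and the median was -2.41 against -0.01 for all genes. This comparison shares the newborn labelled knockouts with the genotype comparison above, so the values are given side by side and not as a second line of evidence. Cxcl3 fell by 5.89 on the log2 scale (SE 1.22, adjusted p = 0.00841), to 0.176 and 0 CPM. Cxcl2 (-4.40 ± 0.96, adjusted p = 0.0136), Ppbp (-3.94 ± 0.84, adjusted p = 0.00942), Pf4 (-2.40 ± 0.55, adjusted p = 0.0128) and Cxcl5 (-1.75 ± 0.53, adjusted p = 0.0366) fell as well. Cxcl1 (-2.41 ± 0.87, adjusted p = 0.0644) and Cxcr2 (-1.54 ± 0.58, adjusted p = 0.072) did not pass. Without newborn labelled-knockout replicate 2, Cxcl2 (-2.69, adjusted p = 0.117) and Cxcl5 (-1.09, adjusted p = 0.253) did not pass. Without adult labelled-knockout replicate 2, Cxcl5 did not pass (-1.22, adjusted p = 0.094), nor did it without either newborn wild type (adjusted p = 0.0773 and 0.0818). Leaving out adult replicate 1 took Ppbp to -5.85, Pf4 to -3.68 and Cxcl1 to -3.65, with which Cxcl1 passed (adjusted p = 0.0346), as it did with DESeq2 (adjusted p = 0.038). Without newborn labelled-knockout replicate 2 Cxcl1 was at -1.37 (adjusted p = 0.43). Cxcr2 passed without either newborn wild type (adjusted p = 0.0262 and 0.0277). With the authors' library totals both passed (adjusted p = 0.049 for Cxcl1 and 0.0499 for Cxcr2).

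Marker lists were read in the same comparison against the 20.4% of all genes that fell and the 19.3% that rose. Of 18 neutrophil markers 6 fell, of 10 erythroid markers 6 and of 8 fibroblast markers 7, while 9 of 12 retina markers rose. Of 14 platelet markers 3 fell, near the share of all genes. Their part in the values of the 7 genes was not tested. In wild types (n = 1 adult against 2 newborn), none of the 7 genes passed, and none did with DESeq2, although 32.6% of all genes passed in either direction. DESeq2 called 6621 genes in all here. At an unadjusted p under 0.05 lay 1 of the 7, against 43.8% of all genes. That gene was Pf4, at 0.872 CPM in the adult and 3.47 and 2.69 CPM in newborns (-1.85 ± 0.76, adjusted p = 0.105). Cxcl2 had no read in any of the 3 wild types.

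**Figure D3:**
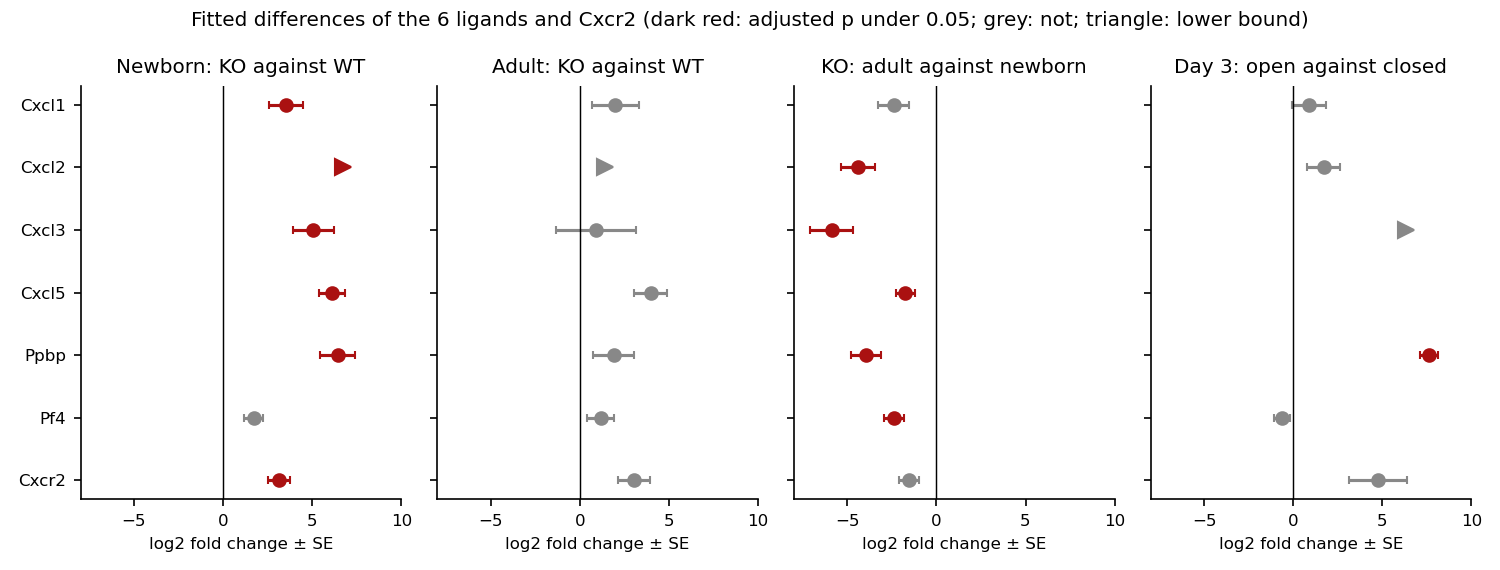
Fitted log2 fold changes ± SE of the 7 genes in 4 comparisons, with KO for labelled knockout. Dark red marks an adjusted p under 0.05, grey one above it, and triangles mark lower bounds where the second group had no reads. Cxcl5 at day 3 is not drawn, since the closed eyes of E24 and E29 had no reads of it. Ppbp is at 6.43 in newborns and at 7.63 between open and closed eyes, and Pf4 at 1.72 and -0.63.

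At 3 days after birth, mice E24 and E29 each had 1 open and 1 closed eye, and the comparison of open with closed lids rests on these pairs, with the mouse as a block and the eyes of E32 and E28 adding to the estimate of the spread. Ppbp rose, the only one of the 7 genes to pass, against 0.457% of all genes that rose. With DESeq2 369 genes passed, 3 of the 7 among them. In 2 of 7 genes, Ppbp and Cxcl3, all 4 open eyes lay above all 4 closed eyes, against 6.56% of all genes. The median log2 fold change of the 7 was 4.77, against 0.02 for all genes.

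Ppbp was at 16.9 (E24), 70.2 (E29), 59.1 and 35.7 CPM (E32) in the open eyes, and at 0.122 (E24), 0.291 (E29), 0.0701 and 0 CPM (E28) in the closed eyes. The lowest open eye thus stood far above the highest closed eye. Its fitted rise was 7.63 ± 0.52 (adjusted p = 0.00246). Within E24 the open eye had 450 reads against 3, a ratio of 138 (exact interval 47.0 to 672), and within E29 1857 against 7, a ratio of 241 (117 to 601). The call needs both mice: without E24 the value was 7.91 (adjusted p = 0.0998) and without E29 7.06 (adjusted p = 0.122), with 0 and 1 genes passing in all. When 1 mouse with unlike eyes is left out, the contrast rests on 1 pair.

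Pf4 did not follow Ppbp. It was at 1.84 (E24), 6.96 (E29), 4.15 and 7.91 CPM (E32) in the open eyes, and at 3.14 (E24), 10.1 (E29), 4.63 and 2.76 CPM (E28) in the closed eyes, so that the groups overlapped. Its fitted value was -0.63 ± 0.45 (adjusted p = 0.999). In both mice the open eye had the lower level, with ratios of 0.586 (0.401 to 0.849) in E24 and 0.686 (0.563 to 0.834) in E29, intervals that cover counting error only.

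Cxcl3 had no read in any of the 4 closed eyes. It was at 0.338 (E24), 4.23 (E29), 3.38 and 1.72 CPM (E32) in the open eyes, at least 81.4-fold higher over all eyes, at least 2.76-fold within E24 and at least 34.0-fold within E29. It did not pass (adjusted p = 0.144) but did with DESeq2 (adjusted p = 0.00248), within a range of 0.00248 to 1 over 11 alternatives. Cxcl5 had no read in the closed eyes of E24 and E29, while their open eyes were at 1.13 and 1.78 CPM, at least 9.21-fold and at least 14.2-fold higher (adjusted p = 0.626). Open and closed eyes overlapped over all mice, because the left closed eye of E28 held 53 reads of Cxcl5 (2.32 CPM) and its right eye none. The open eyes of E32 were at 3.38 and 3.92 CPM.

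Cxcr2, the receptor, showed the same split within E28, with 50 reads (2.19 CPM) in the left eye and 2 (0.0701 CPM) in the right. In E24 it had 34 reads in the open eye and none in the closed, at least 10.4-fold higher, and in E29 143 against 7, a ratio of 18.6 (8.79 to 47.0). The open eyes of E32 were at 2.90 and 10.7 CPM. Its fitted value of 4.77 ± 1.61 did not pass (adjusted p = 0.546) but did with DESeq2 (adjusted p = 0.0252), within a range of 0.0252 to 1 over 13 alternatives. Cxcl2 (1.71 ± 0.92) and Cxcl1 (0.88 ± 0.95) did not pass either (adjusted p = 0.999 for both). Cxcl2 was higher in the open eye of E29, with 100 reads against 17, whereas each eye of E24 had 2. Cxcl1 had 16 reads in the open and 5 in the closed eye of E24, and 3 in each eye of E29. Without E29 the value of Cxcl2 was -0.11, and without E24 that of Cxcl1 was -0.11.

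**Figure D4:**
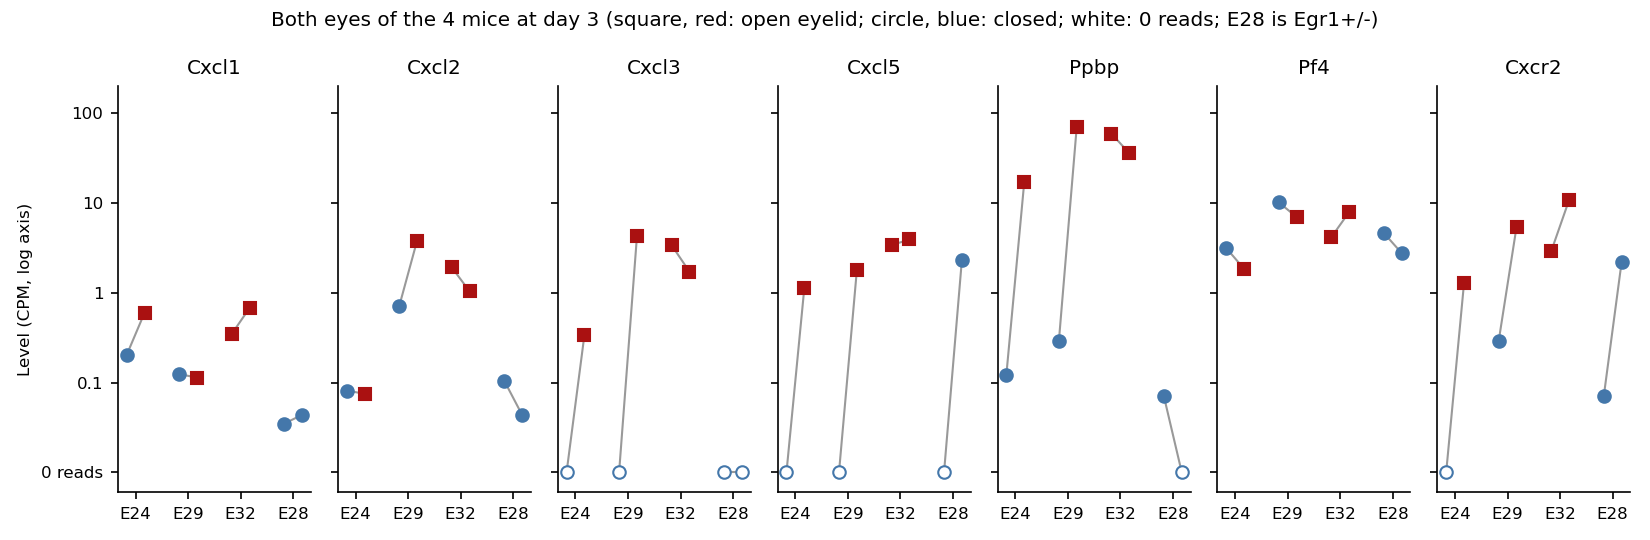
Level of the 7 genes in CPM on a log axis in both eyes of the 4 mice at day 3, with a line joining the eyes of a mouse. For E24 and E29 the closed eye is on the left, and for E32 and E28 the right eye (OD) is on the left. Ppbp is at 16.9 to 70.2 CPM in the open eyes and at 0 to 0.291 CPM in the closed eyes, while Pf4 overlaps between them.

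Among the other lists, keratinocyte markers rose with the open lid in 9 of 14 (median 3.79), led by Krt6b, a keratin of injured epithelium (4.16 ± 0.17, adjusted p = 0.000637). Their summed level was 6796 to 17260 CPM in open eyes, 1323 and 1810 CPM in closed eyes of labelled knockouts, and 2016 and 2793 CPM in those of E28. Of 28 inducing and NF-kB genes 1 passed, Il1b, the gene of interleukin 1 beta, at 1.92 to 8.35 CPM in open eyes and at 0 to 0.0876 CPM in closed eyes (adjusted p = 0.0229). No gene of the other CXC list (14 tested), the CC list (19), the neutrophil list (17) or the platelet list (13) passed, with medians of 0.06, 1.20, 1.48 and -0.07. Neutrophil markers summed to 20.85 to 133.8 CPM in open eyes, 13.75 and 32.76 CPM in closed eyes of labelled knockouts, and 15.32 and 25.76 CPM in E28. The neutrophil genes with the smallest p lay above 0: Trem1 (4.37 ± 0.98), Il1r2 (4.49 ± 1.06), Clec4d (5.96 ± 1.41) and S100a9 (1.23 ± 0.52). Of the defining neutrophil markers, Ngp (1.48 ± 1.09) and Camp (1.57 ± 1.84) lay above 0 and did not pass. Camp, a neutrophil granule gene, had no read in the closed right eyes of E28 and E29. The fitted values of S100a8 (-0.56 ± 1.17), Retnlg (-1.51 ± 1.32) and Cd177 (-0.72 ± 1.47), also neutrophil genes, lay below 0 and did not pass. Platelet markers summed to 134.2 to 148.7 CPM in open eyes, 132.4 and 148.1 CPM in closed eyes of labelled knockouts, and 126.1 and 144.3 CPM in E28. Gp1bb made up most of these sums, at a mean of 84.9 CPM in open and 104.9 CPM in closed eyes. Others went either way: Itgb3 was at a mean of 28.7 CPM in open and 9.47 CPM in closed eyes, and Gp9 at 0.508 and 0.880 CPM. Gp9 and Treml1 had no read in the closed left eyes of E24 and E28, and Gp9 had 83 reads in the closed eye of E29 against 20 in its open eye. Of 15 macrophage markers none passed (median 0.52). Their summed level was 384.8 to 510.1 CPM in open eyes, 286.5 and 319.1 CPM in closed eyes of labelled knockouts, and 224.6 and 237.6 CPM in E28, so open and closed eyes did not overlap. The part of these cells in the values of the 7 genes was not tested.

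Labelled-knockout mice were also set against the heterozygous mouse, with the reads of the 2 eyes of a mouse summed (n = 3 against 1). Open lids occurred only in labelled knockouts, so lid state and genotype cannot be told apart in these sums. With 1 heterozygous mouse, the spread came from the 3 labelled knockouts. None of the 7 genes passed (0% of all genes did), and 2 of 7 had an unadjusted p under 0.05, as had 273 genes in all. With DESeq2 96 genes passed, 1 of the 7 among them. That gene was Ppbp, with 2 reads in E28 and 4903 in the labelled knockouts, a ratio of 811 (224 to 6695; adjusted p = 0.999, and 1.19e-08 with DESeq2). The closed eyes of E24 and E29 had 3 and 7 of those 4903 reads. Cxcl3 had no read in E28 and was at least 28.8-fold higher, all of it from open eyes. Cxcl1 had 2 reads in E28 and 54 in the labelled knockouts, a ratio of 8.93 (2.36 to 75.6). With closed eyes only, again against the 1 heterozygous mouse, the log2 value was 2.32 for Cxcl2, 0.84 for Pf4 and -2.74 for Cxcr2. Cxcl5 then had no read in labelled knockouts and 53 in E28. Ppbp, Cxcl1 and Cxcl3 had too few reads for that fit.

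Over the 7 groups, mean levels of Ppbp spanned a wide range. They were 83.4 ± 51.8 CPM in newborn labelled knockouts (SD, n = 2) and 45.5 ± 23.9 CPM in open eyes at day 3 (n = 4), whose ranges overlapped. Adult labelled knockouts were at 5.43 ± 5.64 CPM (n = 2), a range that held the adult wild type at 1.47 CPM (n = 1). Newborn wild types were at 0.965 ± 0.518 CPM (n = 2), closed eyes of labelled knockouts at 0.207 ± 0.119 CPM (n = 2) and those of the heterozygous mouse at 0.0351 ± 0.0496 CPM (n = 2 eyes). Pf4 spanned far less: 10.2 ± 0.344 CPM in newborn labelled knockouts, 6.64 ± 4.95 CPM in closed and 5.22 ± 2.76 CPM in open eyes of labelled knockouts, 3.69 ± 1.32 CPM in the heterozygous mouse, 3.08 ± 0.550 CPM in newborn wild types, 1.93 ± 1.62 CPM in adult labelled knockouts and 0.872 CPM in the adult wild type. In this order, the range of each group overlapped with that of the next.

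Cxcl5 was at 9.83 ± 4.95 CPM in newborn labelled knockouts, above adult labelled knockouts at 2.92 ± 1.71 CPM and open eyes at 2.55 ± 1.31 CPM, which overlapped. Cxcr2 was at 7.64 ± 1.47 CPM in newborn labelled knockouts and at 5.08 ± 4.14 CPM in open eyes, which overlapped, and at 2.63 ± 0.641 CPM in adult labelled knockouts. Cxcl3 was at 5.60 ± 1.37 CPM in newborn labelled knockouts and at 2.42 ± 1.74 CPM in open eyes, and at or below 0.333 CPM in every other library. Cxcl2 was at 7.68 ± 7.51 CPM and 1.70 ± 1.58 CPM in those groups and at or below 0.707 CPM elsewhere. Cxcl1 was at 2.98 ± 2.14 CPM in newborn labelled knockouts and at or below 0.880 CPM in every other library. Cxcl5, Cxcl3, Cxcl2 and Cxcl1 thus had their highest 2 libraries, or for Cxcl2 1 of its highest 2, among newborn labelled knockouts.

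The make-up of the 6 ligands can be compared per length of transcript, in RPKM (reads scaled by the authors to transcript length and library size). Ppbp made up 79.3% and 46.9% of the summed RPKM of the ligands in newborn labelled knockouts, 63.3% to 78.9% in open eyes, 10.4% and 15.5% in newborn wild types, and 0% to 1.97% in the 4 closed eyes. Pf4 made up 74.0% and 86.1% in newborn wild types and 75.9% to 97.5% in closed eyes, but 10.2% to 25.8% in open eyes. In adults neither took over: Ppbp had 43.3% in the wild type and 48.4% and 31.9% in the labelled knockouts, with Pf4 at 47.2%, 29.1% and 32.2%. Cxcl5 was the third ligand in adult labelled knockouts, at 13.9% and 24.9%, and it made up 22.7% in the left eye of E28. The summed RPKM of the 6 ligands was 83.6 and 134 in newborn labelled knockouts, 16.7 to 64.7 in open eyes and 2.79 to 18.2 in all other libraries.

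**Figure D5:**
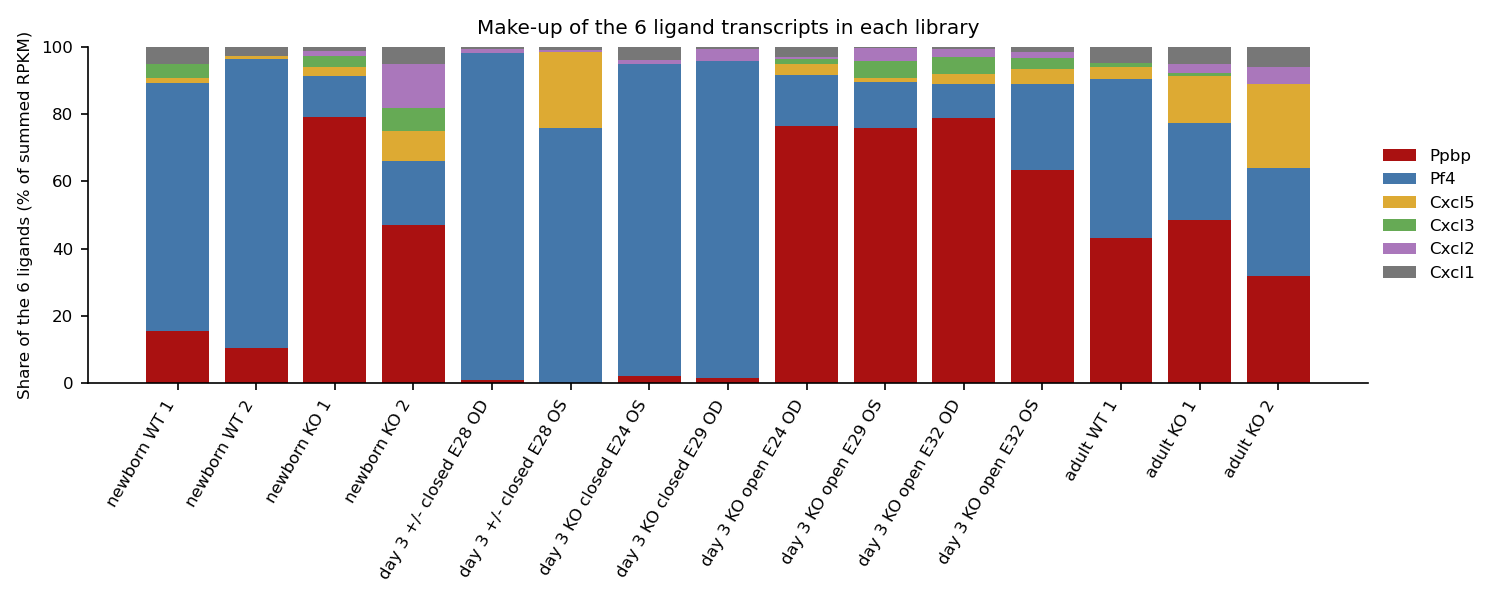
Share of each of the 6 ligands in their summed RPKM, as a percentage, 1 bar per library, with KO for labelled knockout. Ppbp is the largest part in newborn labelled knockouts and in the 4 open eyes (46.9% to 79.3%), and Pf4 in newborn wild types and the 4 closed eyes (74.0% to 97.5%).

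The ratio of Ppbp to Pf4 within a library does not depend on its depth. It was 0.121 and 0.209 in newborn wild types and 2.44 and 6.56 in newborn labelled knockouts. At day 3 it was 2.46 to 7.75 in open eyes and 0 to 0.0212 in closed eyes. In adults it was 0.917 in the wild type and 1.66 and 0.993 in the labelled knockouts, so all 3 adult libraries lay between the low and the high group.

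The genes most like each of the 7 over the 15 libraries were sought by Pearson's r of log2(CPM + 0.5) among 13580 genes, with libraries of different ages and genotypes as points and so without a test. Like Ppbp ran Adam8, a protease of activated leukocytes and epithelium (r = 0.966), Was, an actin regulator of blood cells (0.934), and Krt17, a keratin of injured epithelium (0.933). Pf4 ran with Icam2, an endothelial and leukocyte adhesion protein (0.933), Fermt2 (0.915) and Bmf (0.910). Cxcl3 ran with the cytokines Il24 (0.952) and Il11 (0.938) and with Trim15 (0.938), and Cxcl2 with the chemokine Ccl4 (0.926), with Cxcl3 (0.906) and with Irg1, induced in activated macrophages (0.899). Cxcr2 ran with Apob48r (0.947), Gpr35 (0.944) and Cd300lf (0.943), receptors of myeloid cells among others. Cxcl5 ran with Serpina3g (0.933), with Cxcr2 (0.915) and with Fxyd5 (0.914), and Cxcl1 with Pros1 (0.889), Kcne4 (0.863) and Sspn (0.853).

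Among the 7 genes themselves, r was highest between Cxcl5 and Cxcr2 (0.915), Cxcl3 and Ppbp (0.909) and Cxcl2 and Cxcl3 (0.906), the last pair being the one that may share reads. It was lowest where Pf4 was involved, at 0.357 with Cxcl5, 0.437 with Cxcr2, and 0.446 with Ppbp and with Cxcl1. These values describe 15 libraries that fall into groups.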

How the data were processed

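Per the labels' protocols, poly(A)+ RNA was made into libraries with 18 PCR cycles and no strand marking and read on an Illumina HiSeq. They mention both fixation and RNAlater. The submitters' processing notes name CASAVA 1.8, Bowtie 0.12.9, TopHat2 2.0.11, SAMtools and build mm8. The counting tool and annotation release are not given in the sources used here. The authors deposited, for each of 24373 transcripts, a raw read count and an RPKM value. Symbols with several transcripts were represented by the one with most reads.

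Counts were tested in R 4.3.3 with edgeR 4.0.16 (TMM, filterByExpr, quasi-likelihood). The 4 newborn and 3 adult libraries shared 1 fit, or 1 with age as a term, and the 8 eyes of day 3 another with mouse as a block. CPM are reads divided by the TMM-adjusted library total. RPKM served only for comparing genes. Where a group had no reads, bounds use 3 reads over the group. Ratios have exact binomial 95% intervals. Scripts were tested on simulated data. Alternatives included DESeq2 1.42.0. The genes, lists and motifs were chosen with earlier results of these data known. Named were the 7 genes throughout, up to 4 genes of a list by smallest p, the 3 most alike genes, and single marker genes chosen after their values were seen.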

Additional observations from a re-analysis of the deposited data

How the results depend on the processing

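Of 751 values of the 7 genes under alternative settings, 676 kept their direction and side of the threshold, 24 fell short of it, 36 newly passed and 15, none of them past the threshold, moved or changed sign. For a gene not called in the main fit, keeping its side means only that it again did not pass. In newborns, where 6 of the 7 were called, 90 values were kept, 16 fell short and 6 newly passed. No called value reversed. Size factors, summed transcripts and a minimum of 1 RPKM changed none of the counts of calls by over 1.5 times. Library totals without lens genes returned nearly the same values as the main fit in every comparison. TMM scales the totals anew, so this setting does not test the lens difference between libraries. The authors' library totals moved the median of all genes in newborns from -0.07 to 0.08. Alternatives in which a gene had too few reads gave no value for it.

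In adults, 13 genes passed without a filter and 33 with the authors' library totals. DESeq2 called 107 genes and 1 of the 7 in adults, 2131 genes for the difference between ages, 1486 genes and 7 of the 7 over both ages, 369 genes and 3 of the 7 between open and closed eyes, and 96 genes and 1 of the 7 between labelled-knockout and heterozygous mice. The 4 eyes of E24 and E29 alone gave 210 genes between open and closed eyes, and labelled-knockout eyes without the mouse block gave 29. The edgeR counts these stand against were 0, 492, 2, 81 and 0.

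When each library or mouse was left out in turn, the newborn comparison gave 0 to 5116 genes and 0 to 7 of the 7, the adult one 0 to 205 genes and 0 to 1 of the 7, and the difference between ages 0 to 1613 genes and 0 to 1 of the 7. Both ages together gave 0 to 4502 genes and 0 to 6 of the 7. Adult against newborn wild types gave 3460 to 6423 genes and 0 to 1 of the 7, and adult against newborn labelled knockouts 3 to 6 of the 7. Open against closed eyes gave 0 to 129 genes and 0 to 1 of the 7, and labelled-knockout against heterozygous mice 0 to 6 genes. The cause of these shifts was not tested, beyond the fewer samples that each such fit holds.

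The replicate numbers of the labels are not stated to pair samples, and replicate differences correlated by 0.107 between newborn groups and 0.115 between labelled-knockout ages. With a replicate block, 3631 genes and 5 of the 7 passed in newborns, where Cxcl1 did not (3.62, adjusted p = 0.0586), and 6426 genes and 4 of the 7 between ages of labelled knockouts, where Cxcl5 did not (-1.79, adjusted p = 0.0629). Depth limits Cxcl1, Cxcl2 and Cxcl3 in adults and closed eyes, where 0 to 20 reads were counted per library, and in newborn wild types.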
